A study of Urochloa humidicola with 8 samples.

Results

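The 100 transcripts that took the most reads in young leaves of Urochloa humidicola, a tropical forage grass, are described here. They are the first 100 of 48695 assembled transcripts, which is 0.205% of the names, when the CPM of each transcript (its reads scaled to a common library size, per 1e+06 reads) is averaged over all 8 libraries. Their high mean is therefore how they were chosen and not a result. The 8 libraries came from the second extended leaf, 4 labelled High Lignin and 4 labelled Low Lignin, and both groups share tissue, storage and library kit per the labels. Samples were picked for the groups on lignin percentages from an earlier study. Genotype, age, growth condition and batch are not stated in the labels, and neither is a plant of origin for each sample, so p-values measure only the spread between these samples, which may in part be technical. Library totals ran from 7717993 to 10805639 reads, counted as rounded estimates.

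As background, the messenger RNA of a leaf is unevenly shared out. Transcripts for light harvesting and carbon fixation are usually among the most abundant in green tissue, while lignin, the phenolic polymer that stiffens cell walls and lowers the digestibility of forage, is made by enzymes of the phenylpropanoid pathway. A read count grows with both the number of molecules and the length of a transcript, so a list ranked on reads favours long transcripts over short ones of equal molar level. The transcripts carry only an assembly number as their name. No function is given to any of them here, and the labelled tissue could not be checked against marker genes.

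The 100 transcripts took on average 20.6% ± 4.78 (SD, n = 8) of all reads. Their share was 20.8%, 15.3%, 16.4% and 22.7% in high lignin replicates 1 to 4, and 28.1%, 21.6%, 14.8% and 24.95% in low lignin replicates 1 to 4. In bulk leaf tissue, fewer cells of a type and less RNA per cell cannot be told apart. The groups overlapped, with a high lignin mean of 18.8% ± 3.53 and a low lignin mean of 22.4% ± 5.69 (SD, n = 4 each), and the lowest and the highest share both belonged to low lignin libraries. The difference between the means was within the spread of the libraries. Of the difference of -3.56 percentage points, high minus low, ranks 1 to 10 made up -3.43 and ranks 11 to 100 made up -0.13. Both parts moved with the library left out. Without low lignin replicate 3 they were -4.89 and -1.20, and without low lignin replicate 1 they were -1.83 and 0.17. Over all libraries left out in turn, the part from ranks 1 to 10 lay between -4.89 and -1.83. That from ranks 11 to 100 lay between -1.20 and 0.34. Ranks 1 to 10 took 7.76% ± 2.56 of high lignin reads and 11.2% ± 3.93 of low lignin reads, whereas ranks 11 to 100 took 11.04% ± 1.07 and 11.2% ± 2.16 (SD, n = 4 each). Low lignin replicate 3 held 7.96% of its reads in ranks 11 to 100, and the other 7 libraries held between 9.62% and 12.6%.

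**Figure D1:**
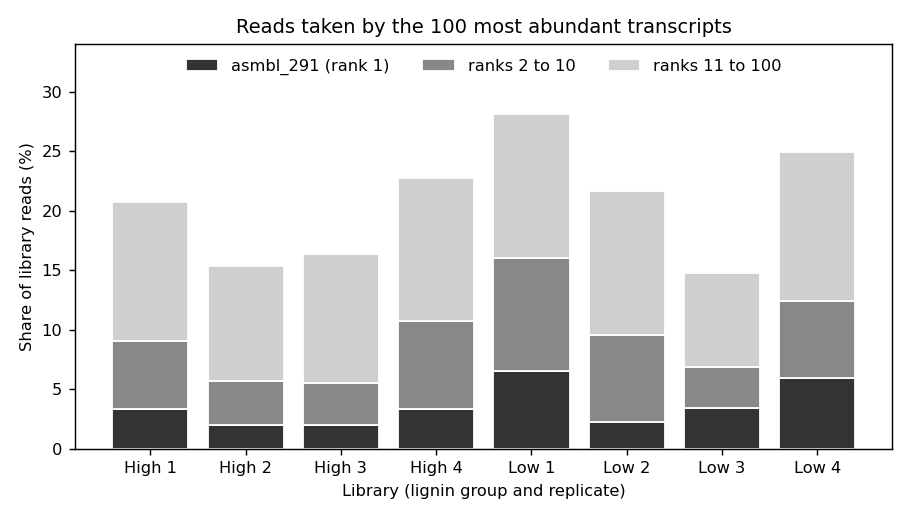
Share of each library's reads (%, vertical axis) taken by asmbl_291, by ranks 2 to 10 and by ranks 11 to 100, stacked for each of the 8 libraries (horizontal axis). The stacks run from 14.8% in low lignin replicate 3 to 28.1% in low lignin replicate 1, and the darkest segment varies from 1.96% to 6.51%.

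Abundance fell off steeply with rank. The first transcript took a mean of 3.61% of reads, the first 6 together 8.42%, the first 10 together 9.47% and the first 50 together 15.9%. Beyond the list the slope was shallow, with 37.3% of reads in the first 500 transcripts and 47.2% in the first 1000. Between 787 transcripts (low lignin replicate 1) and 1455 (low lignin replicate 3) were needed to reach the middle of a library's reads.

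The choice of members depended little on any single library. When the 100 were chosen from 7 libraries and read out in the library left out, between 94 and 98 of the names stayed the same. Their share in the left-out library was then between 14.2% (low lignin replicate 3) and 27.6% (low lignin replicate 1), a value that the choice did not use. Chosen by the mean of the high lignin libraries alone, 84 of the 100 were kept, and by that of the low lignin libraries alone 85. These last 2 lists shared 70 names, which is 70% of each.

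At the lower end the list has no natural border. The last members were asmbl_19099 (2967 bases) with a mean of 769 CPM and asmbl_3431 (1970 bases) with 764 CPM. Just outside stood asmbl_41784 (472 bases) with 762 CPM and asmbl_6931 (1334 bases) with 753 CPM.

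The most abundant transcript, asmbl_291, is 3725 bases long and was the first by reads in each of the 8 libraries. It stood at 33483, 19585, 20348 and 33666 CPM in high lignin replicates 1 to 4 and at 65105, 22666, 34591 and 59046 CPM in low lignin replicates 1 to 4. Low lignin replicates 1, 3 and 4 lay above every high lignin library, replicate 3 only narrowly, while low lignin replicate 2 fell among them. All of its estimated reads were whole numbers in every library. The second, asmbl_292 (1893 bases), carries the next number and stood at 15958, 7985, 7004 and 17545 CPM in high lignin and at 25915, 6460, 9086 and 14876 CPM in low lignin. Its lowest library of all, low lignin replicate 2, and its highest, low lignin replicate 1, belonged to one group.

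Long transcripts filled places 3 to 5. asmbl_34989 (4265 bases) stood at 8230, 3192, 6256 and 17912 CPM in high lignin and at 25824, 7595, 7886 and 12141 CPM in low lignin, a range of 8.09-fold over the 8 libraries. asmbl_25430 (3245 bases) stood at 11588, 8266, 7664 and 14527 CPM in high lignin and at 13071, 17153, 3725 and 10439 CPM in low lignin. asmbl_45000 (2876 bases) stood at 7230, 4855, 4631 and 8113 CPM in high lignin and at 11253, 14899, 4333 and 9430 CPM in low lignin. For both of the latter, low lignin replicate 3 was the lowest of all libraries and low lignin replicate 2 the highest. Without low lignin replicate 3, every remaining low lignin library of asmbl_45000 lay above every high lignin library.

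The remaining transcripts of the first 10 had means between 2365 and 4969 CPM. asmbl_38043 (990 bases) ranged from 1344 CPM in low lignin replicate 3 to 8917 CPM in low lignin replicate 2. asmbl_32479 (2088 bases) was the steadiest of the 10, between 1997 CPM in high lignin replicate 4 and 4838 CPM in low lignin replicate 2. asmbl_3558 (1682 bases), asmbl_44999 (2840 bases) and asmbl_22036 (852 bases) each had their lowest value in low lignin replicate 3, at 1232, 1016 and 1043.5 CPM. All 10 stayed within the first 52 places of every library.

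**Figure D2:**
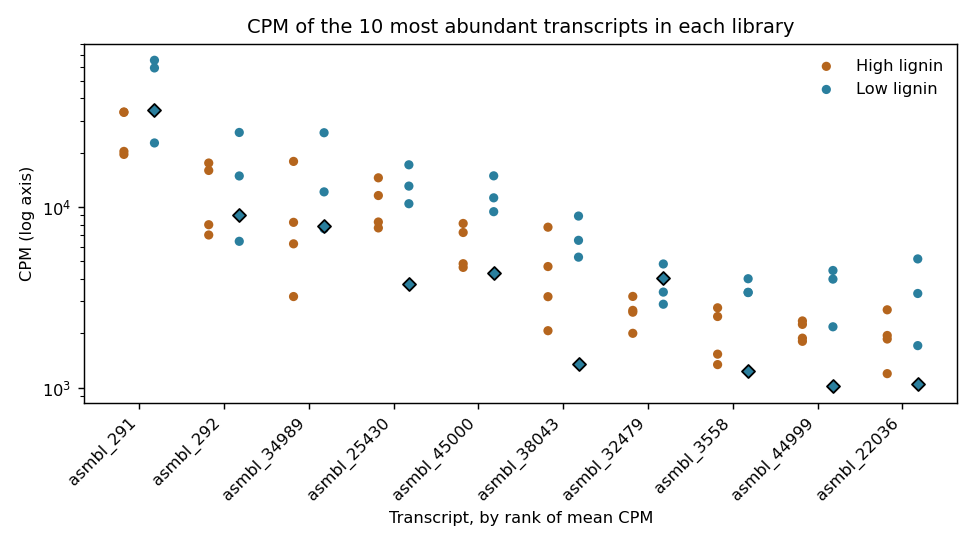
CPM (log axis) of the 10 transcripts with the highest mean CPM, one point per library, high lignin in brown and low lignin in blue, with low lignin replicate 3 as a diamond. In these CPM values, not scaled by TMM, the groups overlap for each of the 10. The diamond is the lowest point of asmbl_25430, asmbl_45000, asmbl_38043, asmbl_3558, asmbl_44999 and asmbl_22036.

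Ranked per length, the order changed. By TPM, the authors' measure that divides reads by effective length, 53 of the 100 were among the first 100 of all transcripts. The highest mean TPM of all transcripts belonged to asmbl_30085, only 343 bases long, with 10781 TPM. Its values were 7779, 15847, 9877 and 6693 TPM in high lignin and 10473, 11686, 15748 and 8145 TPM in low lignin, so the groups overlapped. Next came asmbl_27860 (219 bases, mean 9843 TPM) and then asmbl_291 (mean 8882 TPM). The mean effective length was 187 bases for asmbl_30085 and 78.3 bases for asmbl_27860, so the TPM of both rests on a large correction. A transcript outside the list, asmbl_9253 (213 bases), came next by mean TPM at 7214 and only in place 147 by reads. Its mean effective length was shorter still, at 73.7 bases.

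At the other extreme, asmbl_19569 is 11121 bases long, the longest of the 100. It had a mean of 1565 CPM but a mean of 126 TPM and place 1304 by TPM. asmbl_35053 (4836 bases) had 1997 CPM and 377 TPM, in place 315. The median length of the 100 was 1520 bases, against 1159 bases for the 27015 transcripts that entered the test between groups and 1538 bases for the next 900 in rank. Under 500 bases there were 5 of the 100 (asmbl_30085, asmbl_294, asmbl_40702, asmbl_27860 and asmbl_41785), and over 3000 bases there were 9. The median lengths of the 100 and of the next 900 were close, and both were longer than the tested transcripts as a whole.

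**Figure D3:**
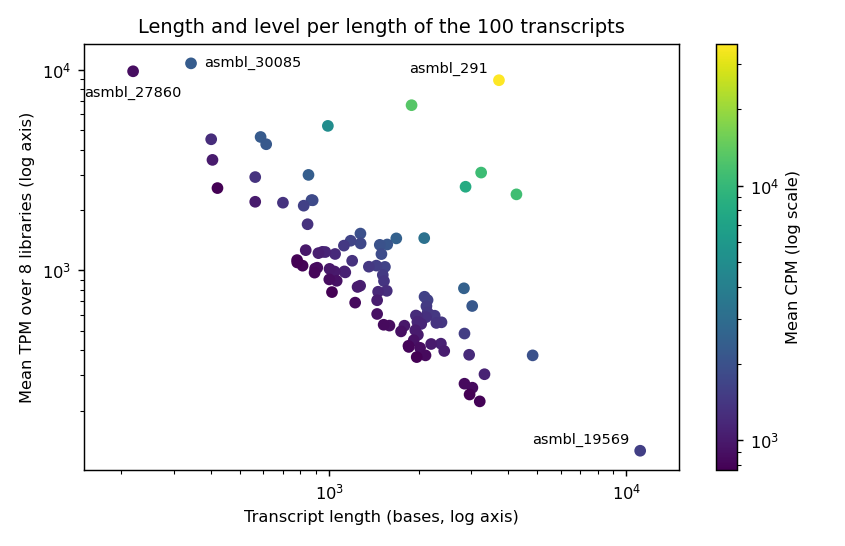
Mean TPM over 8 libraries (log axis) against transcript length (bases, log axis) for the 100 transcripts, with point colour for mean CPM. The points run from the short asmbl_30085 (343 bases, 10781 TPM) to the long asmbl_19569 (11121 bases, 126 TPM), and asmbl_291 stands out with 8882 TPM at 3725 bases.

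Each library had its own version of the list. Between 58 (low lignin replicate 3) and 85 (high lignin replicate 4) of the 100 were among a library's own first 100. The libraries' own lists together held 238 names, 29 of them in all 8 and 83 in 1 library only. These 29 are all members. The member seen least often was asmbl_2179 (1525 bases), within the first 100 of low lignin replicate 3 only, at 2211 CPM there and between 339 and 912 CPM in the others. Among transcripts outside the list, singled out after their values were seen, asmbl_23732 (2086 bases) reached place 11 in low lignin replicate 3 with 3362 CPM, while its lowest library had 5.36 CPM.

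None of the 100 was missing from any library, the smallest count being 37 reads. Yet 9 fell below place 1000 in at least 1 library, in 7 cases low lignin replicate 3. The median member dropped to place 180 in its worst library.

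The spread between libraries was near that of all tested transcripts and larger than that of the next 900 in rank. The SD of log2(CPM + 1) over the 8 libraries had a median of 0.68 in the 100, 0.57 in the next 900 in rank and 0.64 in all tested transcripts. Counting error at a transcript's mean read number amounts to at most 0.017 on the same scale, far below this spread. The median ratio of the highest to the lowest library was 3.96; it was over 10 for 14 transcripts and under 2 for 7. Within high lignin the median SD was 0.46 for the 100 and 0.47 for tested transcripts. Within low lignin it was 0.78 for the 100 and 0.66 for tested transcripts, and without low lignin replicate 3 these became 0.45 and 0.48.

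The steadiest of the 100 was asmbl_13281 (897 bases), with 878, 927, 724 and 1045 CPM in high lignin and 799, 819, 780 and 915 CPM in low lignin, an SD of 0.17 on the log2 scale. asmbl_23023 (2438 bases) followed with 953, 1250, 1064 and 881 CPM in high lignin and 1202, 859, 1032 and 1029 CPM in low lignin. asmbl_2859 (1060 bases) lay between 690 and 1087 CPM over all libraries. For these 3 transcripts the 2 groups interleaved. asmbl_41813 (1274 bases) and asmbl_40950 (3210 bases) completed the 5 steadiest, each with an SD of 0.31.

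The libraries that set the range differed among the most variable members. asmbl_27860 had 319, 428, 1164 and 457 CPM in high lignin and 1643, 1418, 3.59 and 1605 CPM in low lignin, a 458-fold range. In reads, low lignin replicate 3 had 37 against 3049 to 17344 in the other 7. asmbl_41785 (421 bases) followed the same course, with 240, 350, 963 and 303 CPM in high lignin and 1781, 1195, 3.88 and 1324 CPM in low lignin. The pair had the closest profiles of all 4950 pairs of members, with a Pearson correlation of log2(CPM + 1) of 0.997 over 8 libraries and 0.991 over the 7 without low lignin replicate 3. The ratio of asmbl_27860 to asmbl_41785 lay between 0.923 and 1.51 in every library, low lignin replicate 3 included. asmbl_41784, the first transcript outside the list, has the number next to asmbl_41785 and correlated with it at 0.995 over the 8 libraries, and had 30 reads in low lignin replicate 3.

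asmbl_22951 (920 bases) was a further case, at 11.7 CPM in low lignin replicate 3 and between 690 and 1519 CPM elsewhere. asmbl_14906 (821 bases) varied otherwise, with 1022, 88.4, 1600 and 150 CPM in high lignin and 879, 818, 4105 and 4215 CPM in low lignin. Its low values fell in high lignin replicates 2 and 4 and its high values in low lignin replicates 3 and 4. asmbl_36762 (1745 bases) had 1679, 424, 2170 and 383 CPM in high lignin and 534, 159, 65.3 and 1794 CPM in low lignin, with high and low libraries in both groups.

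Low lignin replicate 3 was the lowest of the 8 libraries for 54 of the 100 transcripts. It was lowest for 31.2% of the next 900 in rank and for 17.96% of tested transcripts. In it, 44 of the 100 were more than 2-fold below the median of the other 7 libraries, against 26% of the next 900 in rank and 18.8% of tested transcripts, and 5 were more than 2-fold above, against 9.33% of the next 900 in rank and 20.2% of tested transcripts. It was the highest library for 9 of the 100, for 18% of the next 900 in rank and for 29.9% of tested transcripts. In each of the other libraries between 2 and 18 of the 100 were as far below. Its library total, 10320103 reads, was the second highest, and its TMM scaling factor was the highest at 1.18 (the other 7 lay between 0.867 and 1.08). Scaled by TMM, it was the lowest library for 61 of the 100. By TPM it was the lowest for 56.

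Not all members were low there. asmbl_258 (2294 bases) had 4450 CPM in low lignin replicate 3, 2523 CPM in high lignin replicate 3 and between 186 and 1092 CPM in the other 6 libraries. asmbl_21139 (2852 bases) had 3955 CPM there and between 192 and 2988 CPM elsewhere. Both were chosen after their values were seen.

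Many of the 100 moved together across the libraries. Of the 4950 pairs, 171 (3.45%) had a Pearson correlation of log2(CPM + 1) above 0.9 over the 8 libraries, against 0.809% of pairs in the next 900 in rank. Without low lignin replicate 3 the shares were 2.55% and 1.01%. The points of each correlation are the same 8 libraries, so pairs are not independent and these are descriptions. Linking members by such pairs joined 27 of the 100 into a single block, followed by blocks of 12, 5, 4 and 3. A member joins a block through a single such pair, so members of a block need not all correlate above 0.9 with each other. The blocks of 27, 12 and 5 held 133, 19 and 4 such pairs, which is not every pair within them. The blocks were formed from the values and are not tested.

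The block of 27 held asmbl_25430, asmbl_45000, asmbl_38043, asmbl_44999 and asmbl_22036 from the first 10, and its lengths ran from 614 to 3245 bases. Together it took 5.42%, 4.37%, 3.31% and 6.75% of reads in high lignin and 8.53%, 10.03%, 2.07% and 6.25% in low lignin. Low lignin replicate 2 was the highest and low lignin replicate 3 the lowest, which was also the lowest library for 26 of its 27 transcripts singly. Among its closest pairs, asmbl_2232 (1480 bases) and asmbl_32015 (1441 bases) correlated at 0.990. They had 407 and 246 CPM in low lignin replicate 3 and were at least 847 and 745 CPM elsewhere. Unlike the block as a whole, asmbl_32015 was highest in low lignin replicate 1, at 2831 CPM against 2625 CPM in low lignin replicate 2. Without low lignin replicate 3 in the correlation, the largest block still had 23 transcripts.

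The block of 4 held the 3 longest members, asmbl_34989, asmbl_35053 and asmbl_19569, and also asmbl_28697, with lengths from 2124 to 11121 bases. It took 1.22%, 0.489%, 0.949% and 2.62% of reads in high lignin and 3.63%, 1.13%, 1.07% and 1.82% in low lignin. Here low lignin replicate 1 was the highest and high lignin replicate 2 the lowest, so this profile differs from that of the block of 27. It stayed the same 4 transcripts without low lignin replicate 3. The block of 12, which includes asmbl_33945 and asmbl_40684, took 1.92%, 1.17%, 1.98% and 1.26% in high lignin and 0.844%, 0.751%, 0.674% and 1.73% in low lignin, with low lignin replicate 4 standing among the high lignin libraries.

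**Figure D4:**
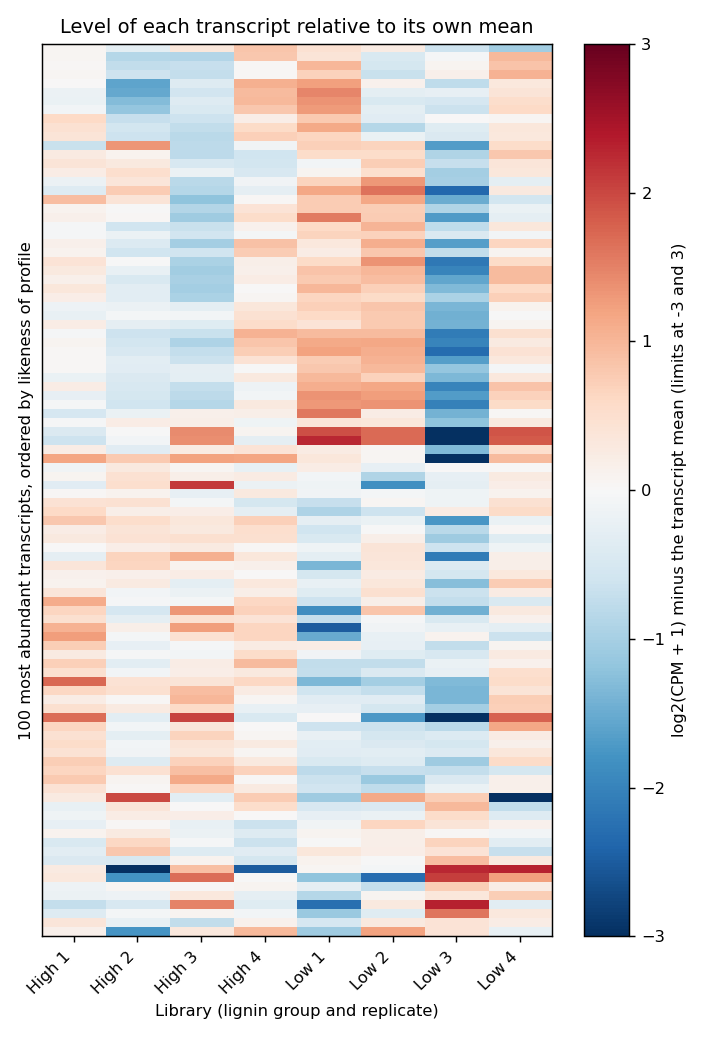
Level of each of the 100 transcripts (rows, ordered by likeness of profile) in each library (columns), as log2(CPM + 1) minus the transcript's mean over the 8 libraries, red above and blue below, with the colour limits at -3 and 3. The column of low lignin replicate 3 is the bluest, being the lowest library for 54 of the 100 transcripts.

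Some of the most abundant transcripts also carried close numbers. asmbl_291, asmbl_292, asmbl_294, asmbl_296 and asmbl_302 were all members, as were asmbl_44999, asmbl_45000 and asmbl_45001. The labels do not say what a close number means in this assembly. The 3 members with profiles most like that of asmbl_291 over the 8 libraries were asmbl_294 (401 bases, Pearson correlation 0.972), asmbl_296 (588 bases, 0.842) and asmbl_292 (0.842). Members with distant numbers were nearly as alike, among them asmbl_28697 (0.816), asmbl_34989 (0.815) and asmbl_35053 (0.807). Without low lignin replicate 3, asmbl_28697 at 0.878 stood above asmbl_292 at 0.871 and asmbl_296 at 0.845. asmbl_295 (518 bases), in place 108, has a number between them and correlated with asmbl_291 at only 0.27. In the second run, asmbl_45000 correlated with asmbl_44999 at 0.897 and with asmbl_45001 (3032 bases) at 0.860. The ratio of asmbl_45000 to asmbl_45001 nevertheless changed from 6.97 to 27.4 between libraries.

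Part of the reads behind these values was shared out by estimation. Estimated reads were whole, within 0.001, in every library for 30 of the 100, against 36.2% of the next 900 in rank and 31.5% of tested transcripts. For 32 of the 100 they were not whole in any library. A count that is not whole shows that some reads were divided among entries, and the division is the authors' quantification. asmbl_291, asmbl_32479, asmbl_30085, asmbl_27860 and asmbl_15163 were whole throughout, whereas asmbl_3558, asmbl_44999, asmbl_294, asmbl_19569 and asmbl_35053 were not whole in any library. None of the 100 shared both its length and its estimated reads with another entry.

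The comparison of high with low lignin asked which transcripts differ between groups picked on lignin percentages from an earlier study. All 100 transcripts passed the low-count filter, and edgeR's quasi-likelihood test called none of them at 0.05 after adjustment (background 0% of 27015 transcripts). Among the 100 the adjusted p was never below 0.655. Before adjustment, 5 had a p under 0.05, all higher in high lignin (asmbl_15163, asmbl_3431, asmbl_39906, asmbl_3823 and asmbl_33945), against a background of 5.85% in either direction and 3.16% in that direction. A count of 5 in 100 is near the background. DESeq2 called 1 of the 100 at an adjusted p of 0.05 (background 0.796%) and limma with voom called 0, with 11 and 9 of the 100 at an unadjusted p under 0.05 (backgrounds 7.47% and 6.77%). With no scaling beyond the library total, edgeR gave 10 of the 100 at that unadjusted p (background 5.82%). The median log2 fold change, high minus low, was -0.13 for the 100 and -0.05 for all tested transcripts, and 41 of the 100 lay above 0 against 46.6% of tested transcripts. For the next 900 in rank the median was 0.15 and 61.8% lay above 0.

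The smallest p among the 100 belonged to asmbl_15163 (1853 bases). It had 1127, 994, 1351 and 1160 CPM in high lignin and 416, 446, 437 and 501 CPM in low lignin, so the groups did not overlap and the lowest high lignin library lay well above the highest low lignin one. Its log2 fold change came to 1.33 (standard error 0.26). The adjusted p was 0.655 by edgeR and 6.6e-06 by DESeq2, so the call depends on the tool.

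The groups also did not overlap for 4 other members, each higher in high lignin, which makes 5 of 100 in all against a background of 4.26% in either direction and 2.82% in that direction. asmbl_39906 (2093 bases) had 2708, 1492, 3163 and 2061 CPM in high lignin and 233, 1234, 1129 and 1075 CPM in low lignin, a log2 fold change of 1.36 (standard error 0.53, edgeR adjusted p = 0.835). Low lignin replicate 1 lay far below the rest of its group there. asmbl_3823 (2040 bases) had 1816, 1481, 1311 and 1705 CPM in high lignin and 860, 899, 306 and 898 CPM in low lignin, a log2 fold change of 1.02 (standard error 0.44, edgeR adjusted p = 0.837). asmbl_9277 (1529 bases) had 1546, 1732, 1632 and 1877 CPM in high lignin and 878, 1306, 755 and 1358 CPM in low lignin, with only a small gap between the groups. asmbl_4003 (2852 bases) had between 966 and 1108 CPM in high lignin and between 378 and 885 CPM in low lignin.

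asmbl_3431 (1970 bases) overlapped between the groups, with 1586, 635, 916 and 1041 CPM in high lignin and 232, 568, 711 and 425 CPM in low lignin. The difference came to 1.15 on the log2 scale (standard error 0.42, edgeR adjusted p = 0.827).

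In the opposite direction no member had an unadjusted p under 0.05 (background 2.69%) and none had groups that did not overlap in CPM (background 1.45%). With CPM scaled by TMM, or by another method (RLE), the groups did not overlap for 6 members. Of these, 5 were higher in high lignin and the other was lower. No background share was computed for these scalings. The 4 members with the smallest unadjusted p in this direction were asmbl_41928, asmbl_39414, asmbl_14906 and asmbl_32479. asmbl_41928 (1181 bases) had 1163, 1122, 1691 and 1090 CPM in high lignin and 1685, 1548, 2985 and 1918 CPM in low lignin (log2 fold change -0.68, standard error 0.31, edgeR adjusted p = 0.838). asmbl_39414 (1568 bases) had 1474, 1203, 1015 and 1642 CPM in high lignin and 4415, 4139, 545 and 2816 CPM in low lignin (log2 fold change -1.23, standard error 0.62, edgeR adjusted p = 0.838). Of its low lignin libraries, 3 lay above every high lignin library and replicate 3 lay below them all. The log2 fold changes of asmbl_14906 and asmbl_32479 were -1.79 (standard error 1.01) and -0.55 (standard error 0.32). The first 10 transcripts by mean CPM all had fold changes below 0, from -0.81 for asmbl_291 to -0.13 for asmbl_25430, with edgeR adjusted p-values from 0.858 to 0.977; limma with voom, and leaving out low lignin replicate 1 or 2, put 1 of them above 0.

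**Figure D5:**
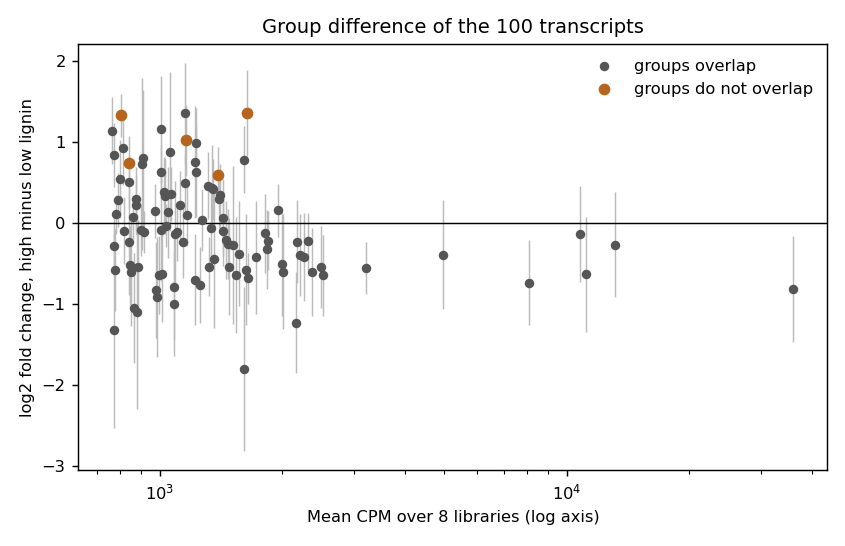
Log2 fold change, high minus low lignin, with its standard error as a bar, against mean CPM over 8 libraries (log axis) for the 100 transcripts. The 5 transcripts whose groups do not overlap in CPM not scaled by TMM, in brown, all lie above 0. Most standard error bars are wide beside the fold changes they belong to.

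How the 100 compared between the groups turned on low lignin replicate 3. Without it, 23 of the 100 had an unadjusted p under 0.05 (background 8.66%), 4 higher (background 4.26%) and 19 lower (background 4.4%) in high lignin, and edgeR called none after adjustment, the smallest adjusted p being 0.403. Of the 19 that were lower, 16 belonged to the block of 27 described above. The same library is the lowest one for 26 of these 27, so the count is not independent of the way the block was found. Groups did not overlap for 22 of the 100 (background 10.2%), 8 of them higher (background 6.75%) and 14 lower (background 3.44%) in high lignin. asmbl_39414 gave the smallest p, with means of 1333 CPM in high lignin and 3790 CPM in the other 3 low lignin libraries, a log2 fold change of -1.60 (standard error 0.30, edgeR adjusted p = 0.403). asmbl_37053 (1125 bases) had means of 750 and 1820 CPM and a log2 fold change of -1.37 (standard error 0.31, edgeR adjusted p = 0.432).

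Leaving out low lignin replicate 4 also raised the count, with members in the opposite direction. Then 15 of the 100 had an unadjusted p under 0.05 (background 7.71%), with 15 higher (background 4.85%) and 0 lower (background 2.86%) in high lignin. The groups did not overlap for 19 (background 9.37%), again with 19 higher (background 5.24%) and 0 lower (background 4.13%).

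Without high lignin replicate 1, 1 of the 100 had an unadjusted p under 0.05 (background 3.98%), higher in high lignin (background 2.1%), and 0 were lower (background 1.88%). The groups did not overlap for 5 then (background 5.85%), all 5 higher (background 3.85%) and 0 lower (background 2%). Without low lignin replicate 1 the count at an unadjusted p under 0.05 was 2 (background 5.48%), both higher (background 3.12%), with 0 lower (background 2.36%), and the groups did not overlap for 6 (background 6.8%), 5 higher (background 4.17%) and 1 lower (background 2.63%). These counts lie near their backgrounds or under them.

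The count of members whose groups did not overlap also rose when replicate 2 of either group was left out. It was 12 without high lignin replicate 2 (background 6.36%), 11 higher (background 3.75%) and 1 lower (background 2.61%). It was 9 without low lignin replicate 2 (background 7.56%), 7 higher (background 4.94%) and 2 lower (background 2.62%). asmbl_15163 kept a fold change above 0 with every library left out in turn. Its groups did not overlap in CPM, so leaving out 1 library could hardly have reversed its direction.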

How the data were processed

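RNA of young leaves was sequenced in 8 libraries, 4 per group, with groups taken from the treatment labels and replicate numbers given in accession order. Salmon 0.7.2, StringTie 2.0.4 and FastQC 0.11.8 appear in the submitters' processing notes, with no role stated. Build and strand setting were not found there. Each file's estimated counts, as deposited, carry no normalization; they were rounded to whole numbers. Deposited TPM is scaled by effective length and keeps no depth. CPM was computed from rounded counts. TMM scaling was used in the test and, as an alternative to plain CPM, in checks of membership, spread, overlap and low lignin replicate 3.

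The test was edgeR 4.0.16 (R 4.3.3): filterByExpr, TMM, quasi-likelihood, group as only term, all 8 libraries, Benjamini-Hochberg over 27015 transcripts, threshold 0.05, two-sided, fold changes high minus low. The standard error is the fold change over the root of F. The fit was also run on simulated counts. Some of these were far less variable than the real data, so that run does not show how many changes the test would miss here. Alternatives were other scalings and filters, DESeq2 1.42.0, limma 3.58.1 with voom, and each library left out. Spread and correlations used log2(CPM + 1).

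The members and lists were chosen with earlier results of these data known. Named were the first 10, the 5 steadiest and 5 most variable, the 4 with the smallest p each way, up to 4 each way whose groups did not overlap, the 3 longest and shortest, the 3 highest by TPM, the 3 most like asmbl_291, ranks 99 to 102, those under 3 reads (0 found) and runs of numbers. Others (asmbl_258, asmbl_21139, asmbl_2179, asmbl_9253, asmbl_23732, asmbl_2232, asmbl_32015, asmbl_37053 and the remaining names) were chosen after their values were seen, as were the blocks.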

Additional observations from a re-analysis of the deposited data

Results flagged for a closer look

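In a group of 4 libraries, a library was singled out when its gap to the nearest of the others was a large part of the group's range (Dixon's test, 95% level). In all 98 groups were checked, 26 on library measures and 72 on transcripts, of which 10 passed. The criterion passes about 5% of groups by chance, but that rate does not apply to these transcripts: many were named for their extreme values, such as the largest spread or the smallest p, and some have alike profiles.

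Low lignin replicate 3 held 7.96% of its reads in ranks 11 to 100, where the nearest low lignin library held 12.1%. It was also far from its group for asmbl_27860, at 3.59 CPM against 1418 for the nearest, for asmbl_3823, at 306 CPM against 860, and, on the high side, for asmbl_40950, at 1117 CPM against 659. Low lignin replicate 1 was far below its group for asmbl_39906, at 233 CPM against 1075.

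High lignin replicate 3 was far above its group for asmbl_27860 (1164 CPM against 457), for asmbl_41785 (963 CPM against 350) and for its neighbour in number asmbl_41784 (970 CPM against 391), 3 transcripts of nearly the same profile. It was also above its group for asmbl_41928, at 1691 CPM against 1163. High lignin replicate 2 was below its group for asmbl_22951, at 1128.5 CPM against 1495.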

How the results depend on the processing

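At an adjusted p of 0.05, 13 of 14 alternative fits called 0 of the 100, as did the fit reported; the 8 that left out 1 library (0 to 0) rest on 7 libraries and so are weak evidence of stability. DESeq2 called 1 (asmbl_15163, log2 fold change 1.33, adjusted p = 6.6e-06). Outside DESeq2 the adjusted p of the 9 transcripts followed ran from 0.373 to 0.998, and none of the 9 changed direction. These 9 were picked in the same libraries for a small p or for groups that did not overlap. Their unchanged direction is therefore weak evidence of stability. The count at an unadjusted p under 0.05, 5 as reported, was 10 with no scaling beyond the library total, 11 with DESeq2 and 9 with limma voom, and 1 to 23 with 1 library left out (low lignin replicates 3 and 4 left out gave 23 and 15). The count of members whose groups did not overlap, also 5, was 5 to 22 with 1 library left out (leaving out high lignin replicate 2 gave 12, and low lignin replicates 2, 3 and 4 gave 9, 22 and 19), a looser condition with 7 libraries. With CPM scaled by TMM or by RLE that count was 6, of which 5 were higher in high lignin. No background share was computed for these scalings, so this count cannot be set against one. Chosen by mean TPM, 53 of the 100 stayed, and by the other rules tried 84 to 99. The high minus low difference in share, -3.56 percentage points, lay between -6.09 and -1.66 with 1 library left out and at -1.71 without asmbl_291; the part from ranks 11 to 100, -0.13, lay between -1.20 and 0.34. The median spread lay between 0.59 and 0.76 over its alternatives. The cause of these changes was not tested. No paired analysis was possible because replicate numbers here follow accession order and pair nothing. Alternatives for the direction of fold changes, for low lignin replicate 3, for the share without asmbl_291 and for the share by rank were added after seeing the data. Each of the 100 had at least 37 reads in every library, so none was at the limit of detection.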
